A study of Mus musculus with 2 samples.

Results

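The 49 genes described here copy DNA during S phase or switch that program on, and 48 of them were read by at least 1 probe set naming that gene alone. They were chosen by gene symbol from the array annotation, out of 18193 genes named on the array, and the gene Chaf1a was not analysed here. The knockout group had both Lpcat3 alleles floxed and carried Villin-CreERT2, a Cre recombinase that the villin promoter restricts to the gut epithelium and that tamoxifen activates. The control group had the same floxed alleles (Lpcat3 F/F) without Cre, and both groups were 8 to 10 weeks old and were injected with tamoxifen, 1 mg a day over 5 days. Small-intestinal crypts were isolated 2 weeks later, the RNA of 5 mice per group was combined, and 1 Affymetrix array was hybridised with each pool. The labels state neither strain nor sex. Lpcat3 encodes an acyltransferase that places polyunsaturated fatty acids into membrane phospholipids.

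Crypts are the proliferative compartment of the intestine, where stem cells and their transit-amplifying daughters divide rapidly before differentiating. In G1 the origin recognition complex, Cdc6 and Cdt1 load the Mcm helicase onto DNA, and in S phase Cdc45 and the GINS complex join it to open the fork for the polymerases. Most genes of this machinery are transcribed together at the G1/S border under E2F transcription factors.

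Each group was 1 array, so no test of genotype was possible, no p-value is given, and the number of arrays limits every value. Deletion of Lpcat3, presence of Cre, pool and array coincide and cannot be told apart. Values are MAS5 signals on a linear scale, and ratios are log2, knockout minus control, of the probe set with the highest mean log2 signal of a gene. The 50th percentile of all signals (92.9) served as the floor of measurement, and all 48 genes lay above it on both arrays. Different probe sets of 1 gene gave ratios with an error SD of 0.28 (1.21-fold, 4582 genes), and of 0.27 for the 30 replication genes that were read more than once above the floor. Differences between mice or pools are not part of that error. The targeted gene, Lpcat3, gave 928 in the knockout pool, against 4691 in the control pool (log2 ratio -2.34). All 9 epithelial markers passed the floor in both pools (villin gene Vil1 17444 in knockout, 14737 in control).

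Replication genes were slightly lower in the knockout pool, nearly all in the same direction. Of 48 genes, 44 were lower and 4 higher, whereas 55.1% of all 11496 genes measured were lower. The median log2 ratio was -0.30 (1.23-fold lower, or 18.6% less signal), beside -0.042 over all genes measured. The middle of the 48 ratios ran from -0.45 to -0.17 (25th to 75th percentile), against -0.28 to 0.18 for all genes. In size the differences were small, with 6 of 48 genes (12.5%) at least 1.5-fold lower, against 8.74% of all genes, a share not far from that background. None of the 48 was at least 1.5-fold higher, against 4.76% of all genes. None reached 2-fold either way, against 2.32% of all genes for a lower and 1.41% for a higher signal. By more than the error SD, 26 of 48 genes were lower, against 25.3% of all genes, and none of the 48 was higher. In bulk RNA, fewer cells in S phase and less of these transcripts per cell cannot be told apart.

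**Figure D1:**
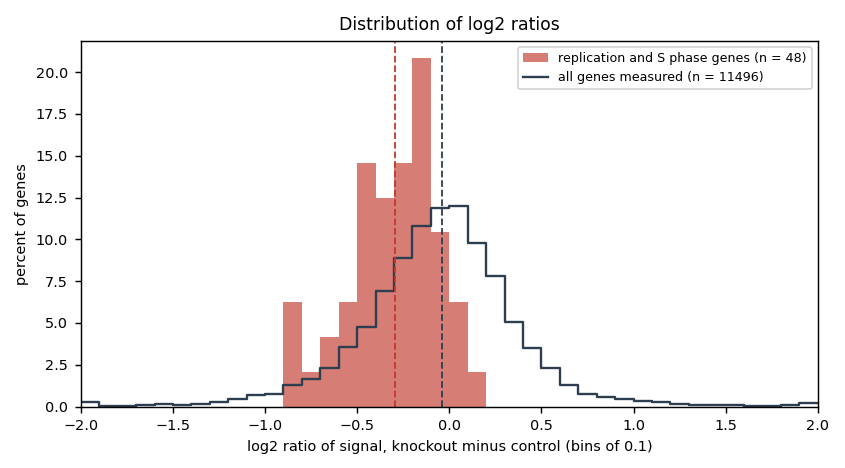
Percent of genes (y axis) per bin of log2 ratio, knockout minus control (x axis), for the 48 replication and S phase genes (bars) and all 11496 genes measured (line). Dashed lines mark the medians of -0.30 and -0.042, and the end bins take in ratios beyond the axis. The bars are shifted to the left of the line and lie within its range.

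Replication genes were also lower when only brighter genes were counted. Among genes above a signal of 451 (75th percentile) on both arrays, 36 of 39 replication genes were lower with a median of -0.30, against 50.9% of 6629 genes with a median of -0.0065. At least 1.5-fold lower were 3 of these 39 genes (7.69%), against 4.09% of the 6629.

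The loading factors of the helicase included the lowest ratios, but these rested on dim probe sets that disagreed. Orc2, a subunit of the origin recognition complex, had a signal of 226 in the knockout pool and 412 in the control pool (log2 ratio -0.86). Its other probe sets gave -0.064 and 0.51. Orc1, the ATP-binding subunit of the same complex, had 176 in knockout and 314 in control (-0.84), while its second probe set gave 0.28. The sign of the Orc1 difference thus depends on which probe set is read. Orc6, another subunit, was at -0.18 (773 in knockout, 873 in control) by its only probe set. Cdt1, which brings the Mcm ring to origins, had 3620.5 in knockout and 4602 in control (-0.35), and -0.18 by its other probe set above the floor. Cdc6, the ATPase that acts with Cdt1, was at -0.17 (268 in knockout, 302 in control), and Gmnn, which encodes geminin, the inhibitor of Cdt1, was at -0.24 (3146 in knockout, 3714 in control). All 6 licensing genes were lower, 2 of them (Orc1 and Orc2) by at least 1.5-fold, with a median of -0.29. Among all genes measured, 55.1% were lower and 8.74% at least 1.5-fold lower, which is the background for each role group below.

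All 11 helicase genes were lower, with a median of -0.39. This was the lowest of the 8 role groups by the brightest probe set, but not with the mean over probe sets, where it was -0.30 and that of the chromatin group -0.39. The subunits of the Mcm2 to Mcm7 ring, which encircles and unwinds DNA, lay between -0.72 and -0.30. Mcm6 had a signal of 2437 in the knockout pool and 4027 in the control pool (-0.72, 1.65-fold lower), and its second probe set, almost as bright, gave -0.34. Mcm2 had 880 in knockout and 1197 in control (-0.44, second probe set -0.30). Mcm5 had 4483 in knockout and 5868 in control (-0.39, second probe set -0.26). These 3 subunits were lower by each probe set above the floor. Mcm7 was read by 4 probe sets above the floor, which gave -0.30, -0.32, -0.26 and -0.42 (6438 in knockout and 7899 in control by the brightest). Mcm4 was at -0.44 (1682 in knockout, 2276 in control) by its brightest probe set but at -0.022 by the other. Mcm3 went both ways: its 2 brightest probe sets gave -0.47 and -0.59, and the 3 dimmer ones 0.24, 0.42 and -0.12. Mcm3 is counted as lower by its brightest probe set, but its readings do not settle a direction.

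Proteins that join the ring differed among themselves. Cdc45, which couples the ring to GINS, had 247 in knockout and 445 in control (-0.85), although its other probe set gave -0.11. Mcm10, which helps to start the assembled helicase, was at -0.30 (1007 in knockout, 1238 in control). The GINS genes lay within the probe-set error. Gins1 was at -0.17, Gins2 at -0.013 (second probe set 0.16) and Gins3 at -0.014 (second probe set -0.22). Gins4, which belongs to the list of other replication genes and was added here after its value was seen, was at -0.14 (912 in knockout, 1005 in control). The median of these 4 subunits was -0.077 and that of the 6 ring genes -0.44, and the difference was not tested.

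**Figure D2:**
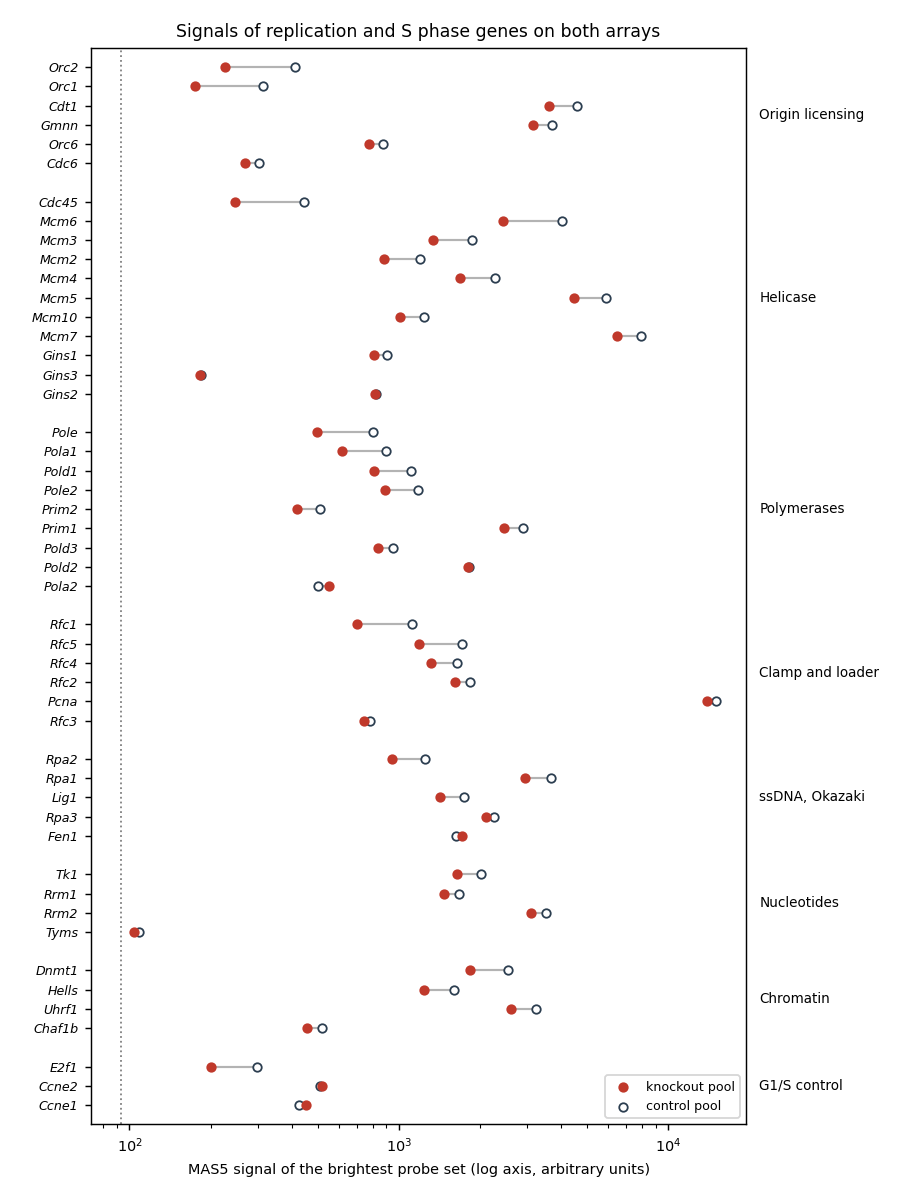
MAS5 signal of the brightest probe set of each gene (x axis, log scale, arbitrary units) in the knockout pool (filled) and in the control pool (open), 1 array each, with genes grouped by role and the floor of 92.9 as a dotted line. In 44 of 48 genes the knockout point lies left of the control point. Signals of different genes are not comparable, since probe sets differ in brightness.

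Among polymerase genes the 3 lowest ratios by the brightest probe set belonged to the catalytic subunits of polymerases epsilon, alpha and delta. Pole, of the leading-strand polymerase epsilon, had a signal of 497 in the knockout pool and 802 in the control pool (-0.69, 1.61-fold lower) by its only probe set, and its partner Pole2 was at -0.41 (890.1 in knockout, 1183 in control). Pola1, of polymerase alpha, which starts each new strand, had 614 in knockout and 898 in control (-0.55). Pold1, of the lagging-strand polymerase delta, was at -0.46 (807 in knockout, 1111 in control), and -0.22 by its second probe set. By its second probe set Pold3, an accessory subunit of polymerase delta, was lower than Pold1 (-0.34, against -0.18 by its brightest), so that order rests on the brightest readings. Pold2, another accessory subunit, was at -0.015 (1807 in knockout, 1826 in control), and Pola2, the accessory subunit of polymerase alpha, was the highest of all 48 genes at 0.14 (549 in knockout, 499.7 in control). The primase genes, whose products lay down RNA primers, were at -0.25 (Prim1) and -0.27 (Prim2). The 2 probe sets of Prim1 were about equally bright but gave -0.25 (2448 in knockout, 2903 in control) and -1.04 (1560 in knockout, 3197 in control), so the size of its difference is not settled. In this group 8 of 9 genes were lower (background 55.1%), 1 by at least 1.5-fold (background 8.74%), with a median of -0.27.

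Promoter sequences are shown because E2F factors act through sites near the start of these genes. RefSeq promoters of GRCm38.p6, spanning 250 bases before to 50 after the transcription start, were found for 41 of the 49 genes. The E2F site was searched on both strands as the words TTTCCCGC, TTTCGCGC, TTTGCCGC and TTTGGCGC, which can overlap each other. It matched in 17 of 41 genes (41.5%), against 704 of 27025 genes with a promoter (2.61%) and 4.71% of the 9338 of these that were measured. A match is a description of the sequence and not evidence of binding. The 3 promoters below, 250 bases up to the start and read 5′ to 3′ on the strand of the gene, belong to the 2 lowest genes and the highest gene whose probe sets had the same sign and whose promoter was at hand. Pola2 had only 1 probe set above the floor. E2F words are in capitals.
Mcm6: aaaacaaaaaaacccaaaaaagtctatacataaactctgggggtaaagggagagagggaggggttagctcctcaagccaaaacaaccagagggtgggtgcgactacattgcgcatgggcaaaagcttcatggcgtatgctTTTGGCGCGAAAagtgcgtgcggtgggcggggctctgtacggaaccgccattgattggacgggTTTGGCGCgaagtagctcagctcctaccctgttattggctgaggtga
Cdc45: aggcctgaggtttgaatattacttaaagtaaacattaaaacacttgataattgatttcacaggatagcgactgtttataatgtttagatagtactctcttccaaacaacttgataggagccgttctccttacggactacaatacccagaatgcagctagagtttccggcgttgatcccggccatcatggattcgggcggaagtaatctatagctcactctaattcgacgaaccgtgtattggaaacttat
Pola2: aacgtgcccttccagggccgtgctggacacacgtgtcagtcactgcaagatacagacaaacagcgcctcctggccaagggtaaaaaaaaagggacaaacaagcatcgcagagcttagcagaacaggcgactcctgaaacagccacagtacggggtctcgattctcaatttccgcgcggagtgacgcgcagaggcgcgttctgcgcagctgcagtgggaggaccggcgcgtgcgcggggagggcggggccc

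The Mcm6 promoter (chr1:128359706-128359955, minus strand) holds 3 E2F words, of which those at -110 and -106 bases from the start overlap on opposite strands and the third lies at -47. The Cdc45 promoter (chr16:18811973-18812222, minus strand) and the Pola2 promoter (chr19:5964207-5964456, minus strand) hold none, and their base composition differs, at 40.4% and 61.2% G and C. The 2 lowest ratios shown thus include a promoter with the word and one without it.

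Among licensing and helicase genes 7 others had a match, and the 28 bases around the match nearest to the start are shown in the same way to compare their flanks. In Mcm5 the capitals cover 2 overlapping words.
Orc1: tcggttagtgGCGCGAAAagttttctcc
Cdc6: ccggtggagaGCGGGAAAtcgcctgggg
Cdt1: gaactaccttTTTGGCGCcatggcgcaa
Mcm3: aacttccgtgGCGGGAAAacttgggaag
Mcm5: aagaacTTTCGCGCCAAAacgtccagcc
Mcm7: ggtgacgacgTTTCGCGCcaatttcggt
Gins3: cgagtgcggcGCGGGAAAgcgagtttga

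These stretches lie at chr4:108579417-108579444 (Orc1), chr11:98908003-98908030 (Cdc6) and chr8:122568037-122568064 (Cdt1), all on the plus strand. Those of Mcm5 (chr8:75109350-75109377) and Gins3 (chr8:95633508-95633535) are also on the plus strand, and those of Mcm3 (chr1:20820276-20820303) and Mcm7 (chr5:138171850-138171877) on the minus strand. All 17 genes with an E2F word were lower in the knockout pool, from -0.84 to -0.014, with a median of -0.37. Of the 23 measured genes whose promoter had no such word, 20 were lower, with a median of -0.25. When only the 250 bases before the start were searched, a choice made after seeing the data, 11 of 41 genes had a match, against 2.16% of all genes, and the medians were -0.37 with the word and -0.30 without it. Over all measured genes with a promoter, the 440 with the word had a median of -0.10 and 64.1% were lower, against -0.038 and 54.5% for the 8898 without it. Without the replication genes, the remaining 423 genes with the word had a median of -0.091, and 62.6% were lower.

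**Figure D3:**
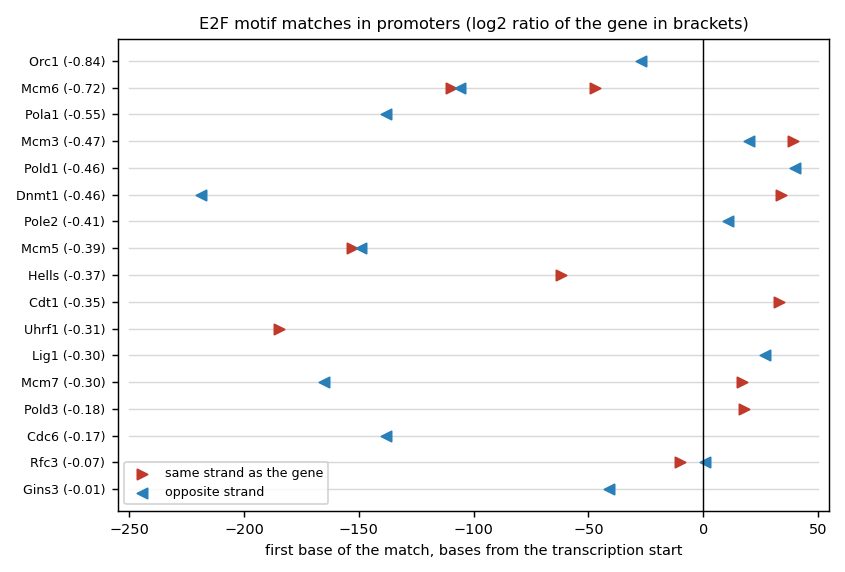
Position of each E2F word (x axis, bases from the transcription start, negative before it) in the promoters of the 17 genes with a match, ordered from the lowest log2 ratio at the top, with arrowheads for the strand. Matches of genes with low ratios (Orc1 -0.84, Mcm6 -0.72) and with ratios near 0 (Rfc3 -0.068, Gins3 -0.014) occupy the same stretch.

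The sliding clamp and its loader had a median of -0.25 over 6 genes, all lower. Pcna, the ring that holds the polymerases on DNA, differed little, with 13885 in the knockout pool and 15106 in the control pool (-0.12). Rfc1, the large subunit of the clamp loader, had 702 in knockout and 1115 in control (-0.67, 1.59-fold lower), and its other probe sets gave -0.78 and -0.28. Rfc1 was thus lower by all 3 of its probe sets. Rfc5 was at -0.53 (1184 in knockout, 1709.95 in control) by its only probe set. Rfc4 was at -0.32, Rfc2 at -0.18 and Rfc3 at -0.068, and each of these 3 was lower by its other probe sets as well.

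Genes for single-stranded DNA and Okazaki fragments followed with a median of -0.30 over 5 genes. Replication protein A coats single-stranded DNA as a trimer. Its subunit Rpa1 had 2948 in knockout and 3671 in control (-0.32, second probe set -0.35), and Rpa2 had 944 in knockout and 1248 in control (-0.40, second probe set -0.46). Both were lower by about the same amount on each probe set. Rpa3, the smallest subunit, was at -0.11. Lig1, the ligase that seals the fragments, was at -0.30 (1426 in knockout, 1752 in control). Fen1, the nuclease that trims them, was within the probe-set error, at 0.076 (1723 in knockout, 1634 in control) by the brightest probe set and -0.13 by the other.

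The 4 genes of nucleotide supply were lower by their brightest probe sets, with a median of -0.19. Tk1, thymidine kinase, had 1640 in knockout and 2015 in control (-0.30). For the 2 subunits of ribonucleotide reductase, which makes deoxynucleotides, the readings conflicted: Rrm1 gave -0.19 by the brighter probe set and 0.34 by the dimmer one, and Rrm2 was at -0.19, -0.23 and 0.31. Tyms, thymidylate synthase, was at -0.068 with signals of 104 in knockout and 109 in control, close to the floor.

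Genes that copy chromatin marks were lower by every probe set above the floor. Dnmt1, the maintenance DNA methyltransferase, had 1844 in knockout and 2537 in control, and its 3 probe sets gave -0.46, -0.65 and -0.46. Uhrf1, which guides Dnmt1 to newly copied DNA, had 2614 in knockout and 3245 in control (-0.31, second probe set -0.22). Hells, a chromatin remodeller needed for DNA methylation, had 1241 in knockout and 1605 in control (-0.37), and its dimmer probe sets gave larger differences of -0.64 and -1.22. Chaf1b, a subunit of the histone chaperone CAF-1, was at -0.18. The median of these 4 genes was -0.34.

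The 3 genes that control entry into S phase went both ways. The E cyclins, which activate the kinase Cdk2 at the G1/S border, were near 0: Ccne1 had 452 in knockout and 425 in control (0.088, other probe set -0.19), and Ccne2 had 517 in knockout and 508 in control (0.025). E2f1, the activating E2F factor, had 201 in knockout and 298 in control by its brightest probe set (-0.57), whereas the second gave -0.0096. With 3 genes, the median of 0.025 carries little weight.

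**Figure D4:**
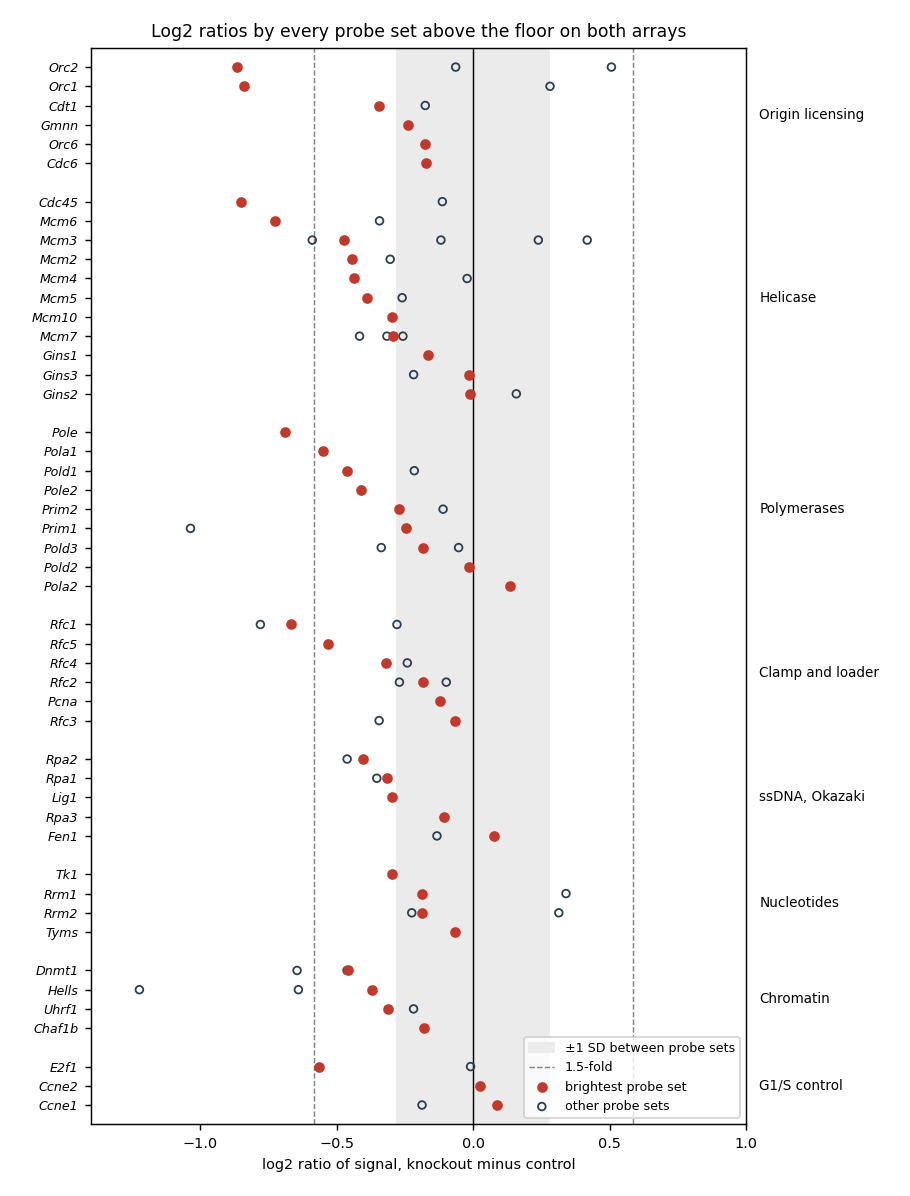
Log2 ratio, knockout minus control (x axis), by the brightest probe set (filled) and by every other probe set of each gene whose signals both passed the floor (open), grouped by role. The band spans 1 SD of the probe-set error (0.28) on either side of 0 and dashed lines mark 1.5-fold. Most points lie left of 0, and 8 genes have probe sets on both sides of it.

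Counting every probe set that passed the floor in both pools, 79 of 90 were lower in the knockout pool, against 54.1% of 18008 such probe sets on the array, and 12 (13.3%) were at least 1.5-fold lower, against 7.8%. By the second brightest reading, available for 30 genes, 27 were lower with a median of -0.23, against 52.8% and -0.028 over the 4582 such genes of the array. In 25 of these 30 (83.3%) both the brightest and the second were lower, and in none were both higher. Over the 4582 genes, 65.7% had the same sign in both, in either direction. With 30 genes read more than once, 22 were lower by each probe set above the floor, and 8 had probe sets of both signs (Orc1, Orc2, Mcm3, Gins2, Rrm1, Rrm2, Fen1 and Ccne1). Of the 6 genes at least 1.5-fold lower (Orc2, Cdc45, Orc1, Mcm6, Pole and Rfc1), only Rfc1 passed 1.5-fold by its second probe set as well, and Pole had no second one.

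Other replication genes, from a list of 48 written from textbook knowledge, lay lower as well. Of 45 measured, 36 were lower, 6 of them by at least 1.5-fold, and 1 was at least 1.5-fold higher, with a median of -0.23. Among all genes measured, 55.1% were lower, and 8.74% lower by 1.5-fold or more. The same shares are the background for the lists that follow. Dtl, the adaptor that directs Cdt1 to destruction in S phase, had 405 in the knockout pool and 742 in the control pool (-0.87), but its other probe sets gave -0.33 and 0.036. Cdca7, which recruits Hells, was at -0.78 (853 in knockout, 1465 in control), and Msh6, a mismatch repair protein that binds Pcna, at -0.76 (581 in knockout, 988 in control). Dscc1, part of an alternative clamp loader, was at -0.72, Casp8ap2, needed for histone transcription, at -0.66, and Timeless, a fork protection protein, at -0.59. Pold4, the small subunit of polymerase delta that is degraded in S phase, went the other way, with 551 in knockout and 305 in control (0.86). Rnaseh2c (0.28) and Orc4 (0.21) were next highest, although their second probe sets gave -0.10 and -0.35.

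Upstream regulators of G1 were mixed. Of 24 measured, 18 were lower and 5 at least 1.5-fold lower, with a median of -0.24. Cdk6, a kinase that releases E2F from the retinoblastoma protein, had 1172 in knockout and 2422 in control (-1.05, second probe set -0.98). Rbl2, a retinoblastoma family member, was at -0.67 and Tfdp2, a dimer partner of E2F, at -0.66, but the other probe sets of Tfdp2 gave 0.0011 and -0.10. At the top were E2f6 (0.49, second probe set -0.20), Lin52 (0.34) and E2f4 (0.33), the last of these close to the floor at 119 in knockout and 95.0 in control. Inhibitors of cyclin-dependent kinases split: Cdkn1a, the p21 gene, had 3548 in knockout and 2272 in control (0.64, second probe set 0.79), and Cdkn2b, the p15 gene, had 3704 in knockout and 2352 in control (0.66). Cdkn2c (-0.57), Cdkn2d (-0.51) and Cdkn1b (-0.47) were lower, as was Cdkn1c (-0.36), which was below the floor in the knockout pool. The median of the 6 measured was -0.42, a value that does not describe Cdkn1a and Cdkn2b.

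G2 and mitosis genes had a median of -0.20 over 30 genes. Of these, 25 were lower and 2 at least 1.5-fold lower (background 8.74%), Ndc80 (-0.85) and Ccna2 (-0.59, second probe set -0.16). Ttk was at -0.58, and Cdca3 (0.11), Cdc20 (0.16) and Birc5 (0.26) were highest. The difference between this median and the -0.30 of the replication genes was not tested.

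Markers of cell types present in crypts also differed between the pools, and their part in the replication result was not tested. Stem cell markers had a median of -0.74, with all 11 measured lower (Lgr5 -2.25, Slc12a2 -1.09, Sox9 -0.99). Of these, Tnfrsf19 (-0.14) was below the floor in the knockout pool. The summed signal of the stem cell markers was 34468 in knockout and 57614 in control. That sum is carried by 2 bright probe sets, those of Slc12a2 (8106 in knockout, 17268 in control) and Olfm4 (21348 in knockout, 32027 in control, named after its value was seen), and such sums say little of dim markers. All 6 Paneth cell markers measured were lower (median -1.07), with a summed signal of 70271 in knockout and 114318 in control. T and natural killer cell markers, from lymphocytes that sit in the epithelium and can divide, had a median of -2.10, with all 11 measured of 12 listed at least 1.5-fold lower and Cd7 below the floor in the knockout pool. Their summed signal was 9413 in knockout and 45122 in control. All 8 B and plasma cell markers measured were higher (median 0.98), summing to 5439 in knockout and 1660.2 in control. Of these, 1 was below the floor in the control pool. Jchain (2974 in knockout, 593 in control) was the largest part of that sum. Next was Ighm (1036 in knockout, 268 in control), whose other probe sets gave 0.072 and 1.32. Enterocyte markers were at 0.20 over 11 genes, epithelial markers at 0.17 over 9, myeloid markers at 0.073 over 5, and stroma and vessel markers at 0.0071 over 4. The 8 housekeeping genes measured had a median of 0.099.

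**Figure D5:**
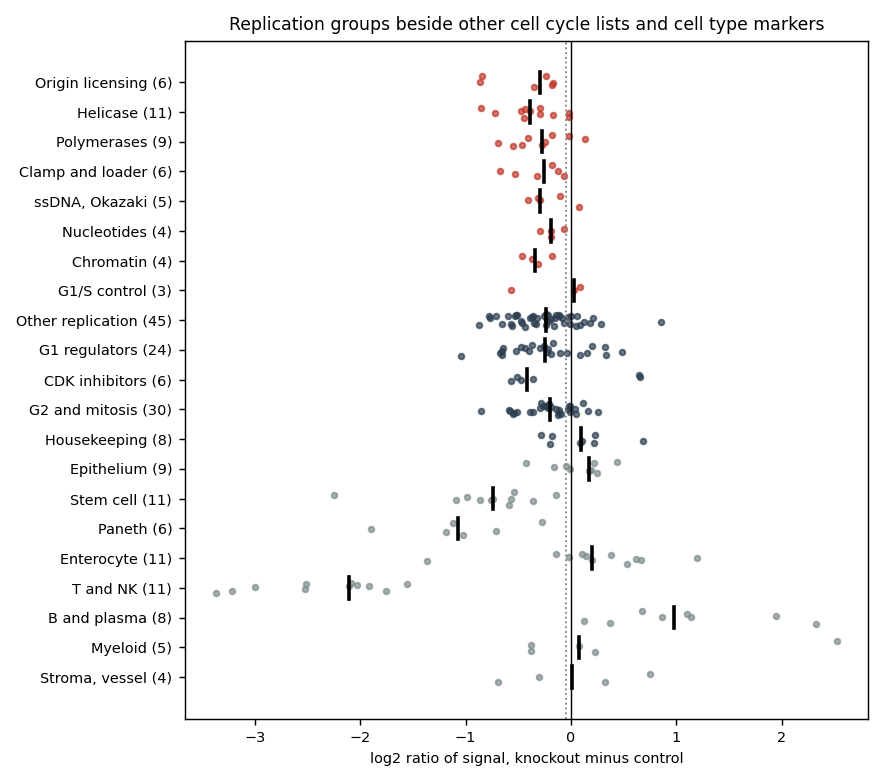
Log2 ratio, knockout minus control (x axis), of each measured gene (points) and the median (black bar) for the 8 role groups of replication genes (red), 5 other lists (dark) and 8 cell type marker lists (grey), with the number of genes in brackets. The dotted line is the median of all genes (-0.042). Replication groups lie between -0.39 and 0.025, nearer to 0 than the stem cell (-0.74), Paneth (-1.07) and T and natural killer (-2.10) markers.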

How the data were processed

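Per the submitters' processing notes, the authors computed MAS5 signals, and the deposited table holds them as linear intensity values, 1 per probe set and array; no source used here names a MAS5 version. Both arrays had a mean of 500 after trimming 2% at each end, so the values were used without rescaling. Of 45101 probe sets, 64 controls were set aside; 34945 of the rest named 1 gene, and only these were used. Symbols came from GEO's platform annotation, updated by Entrez identifier to RefSeq (GRCm38.p6). Signals under the floor (50th percentile, 92.9) were raised to it before log2 ratios were taken, and 6697 genes below it in both pools were not measured. Called means 1.5-fold, with no test. Alternatives for scaling, floor and probe set choice were computed, and the code was tested on simulated data. Any of the 49 genes could be named, and from other lists the 3 highest and 3 lowest and, for other replication genes, all past 1.5-fold. The members and lists were chosen with earlier results of these data known, and they share genes with a proliferation list described before, so they are no independent support. Python 3.11.15, numpy 2.4.6 and pandas 2.3.3 were used.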

Additional observations from a re-analysis of the deposited data

Results flagged for a closer look

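A brighter probe set that names both Tyms and its pseudogene Tyms-ps was left out, since it names more than 1 gene, and was higher in the knockout pool. Its signal was 1587 in knockout and 1459 in control (log2 ratio 0.12), whereas the probe set naming Tyms alone gave -0.068 at signals close to the floor. The direction for thymidylate synthase is therefore uncertain.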

How the results depend on the processing

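No paired analysis was possible because there is a single array per genotype, which also means that none could be omitted. Under the 11 planned settings the median of the replication genes stayed between -0.40 (centred on housekeeping genes) and -0.22 (second brightest probe set). In the second brightest setting, genes without a second reading above the floor kept their main value. For 18 of the 48 genes, neither that setting nor the mean over probe sets could move the ratio. Over the 30 genes with a second reading, the median of that reading was -0.23. With that limit, 39 of 48 genes were lower in each setting that measured them. The count of lower genes ranged from 36 of 39 (bright genes only) to 47 of 48 (housekeeping centring), against 50.9% and 67.0% of all genes in these settings. It was 42 of 48 after quantile normalisation and after lowess, against 52.0% and 52.4% of all genes. With the 40 genes whose probe sets had the same sign, a choice made after seeing the data, 38 were lower. Of these 40, 18 had only 1 probe set above the floor, so no conflict of sign was possible. The same choice was not applied to all genes. The count at least 1.5-fold lower was 3 of 43 under a higher floor (70th percentile), against 5.21% of all genes. It was 3 of 48 with the mean over probe sets (7.84% of all genes) and 3 of 39 with bright genes only (4.09%). With housekeeping centring it was 9 of 48, against 12.4% of all genes. The share of replication genes was thus below that of all genes with the mean over probe sets, and above it in the other settings named here. Only Pole stayed past 1.5-fold in each setting, but it has 1 probe set, so settings that change the probe set could not move it. Rfc1, read by 3 probe sets, fell short only with the mean over them (-0.576). Orc1 turned to 0.28 by its second probe set. The median of the helicase group was -0.26 in the second brightest setting (chromatin group -0.43, polymerases -0.34, clamp and loader -0.31) and -0.30 without _s_at and _x_at (chromatin group -0.34), so its rank is lost there. Those second brightest medians mix second readings with main values of genes that have none. Over second readings alone they were -0.26 (helicase, 9 genes), -0.64 (chromatin, 3), -0.28 (polymerases, 4) and -0.31 (clamp and loader, 4). That of the S phase entry genes was -0.19 without probe sets ending in _s_at or _x_at, where 14 of 18 second probe sets were lower. Housekeeping centring shifted the median of all genes to -0.14 and gave -0.33 for other replication genes, -0.34 for G1 regulators and -0.30 for G2 and mitosis genes. Other replication genes stood at -0.17 after lowess and -0.18 after quantile normalisation. Inhibitors of cyclin-dependent kinases were at 0.085 over the 4 bright genes, and housekeeping genes at -0.061 by the second probe set and -0.044 without _s_at and _x_at. In the 250 bases before the start alone, chosen after seeing the data, 11 of 41 genes had an E2F word, against 2.16% of all genes. Housekeeping centring subtracts the housekeeping median of 0.099 from every ratio, so its shifts are fixed by that constant. The cause of the other shifts was not tested, other than that in some settings fewer genes or probe sets enter by construction.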

Other observations

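Other promoter words were searched in the same 300 bases on both strands. CCAAT, the box bound by NF-Y, was found in 25 of 41 replication genes (61.0%), against 41.1% of all 27025 genes with a promoter, and GGGCGG, the word bound by Sp1, in 32 of 41 (78.0%), against 38.2%. The cell cycle homology words TTTGAA and TTCGAA, known from late cell cycle genes, were found in 8 of 41 (19.5%), against 21.7%. Of the 9338 measured genes with a promoter, 4009 held CCAAT, 6327 held GGGCGG and 1531 held a homology word. For GGGCGG the share in measured genes was thus much nearer to that in replication genes. For the homology words it was below the share in replication genes. Measured replication genes with CCAAT had a median log2 ratio of -0.31 (24 genes, 24 lower) and those without it -0.30 (16 genes, 13 lower). Over all measured genes with a promoter, 54.4% of the 4009 with CCAAT were lower (median -0.037). Of the 5329 without it, 55.3% were lower (median -0.046).

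The ratio of 3' to 5' signal for Actb, a sign of RNA integrity, was 1.64 in the knockout pool and 1.98 in the control pool, and for Gapdh 0.742 in knockout and 0.785 in control. The 3 control probe sets of Gapdh were at log2 ratios of 0.36 to 0.55 and the 3 of Actb at 0.11 to 0.39, all higher in the knockout pool.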
